A study of Mus musculus with 556 samples.

Results

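In single mouse oocytes, 400 bins of 100 kb had the highest ratio of Dam-lamin B1 to Dam signal, out of 24022 autosomal bins with a value. For each bin the rule took the mean OE, the ratio of observed to expected reads, over 56 oocytes with Dam-lamin B1 and over 43 oocytes with Dam alone. It added 0.25 to both means and ranked the bins by the log2 of their ratio. The 400 bins, called members here, had a log2 ratio of 0.80 to 1.83 with a median of 1.05, and the median of all bins was -0.19. The members were thus chosen by these OE values, which are given as a description. The 5 members closest to the limit had log2 ratios of 0.803 to 0.806 and the 5 bins just outside it 0.798 to 0.803, with no gap at the limit.

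The nuclear lamina is a protein mesh under the inner nuclear membrane, and lamin B1 is a core part of it. Chromatin that touches the lamina forms lamina-associated domains (LADs), long stretches that are usually poor in genes and little transcribed. In DamID a bacterial methyltransferase, Dam, is fused to a protein and marks the adenine of nearby GATC sites, and Dam that is not fused marks accessible DNA. A fully grown oocyte is arrested in the first meiotic prophase with an intact nucleus, the germinal vesicle.

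The deposited table holds 512 single cells or single pronuclei. Oocytes were collected at the germinal vesicle stage from primed females and carry the strain label C57BL/6, whereas the protocol names F1 (CBAxC57BL/6J) females of 5 to 8 weeks. They received 5 ng/µl of Dam-lamin B1 mRNA or 20 ng/µl of Dam mRNA, with both proteins carrying an auxin-inducible degron (AID), and spent 6 to 8 h without auxin. All cells of the oocyte and embryo protocols also received mRNA for TIR1, the plant receptor that directs auxin-bound targets to degradation, and for a membrane EGFP. Construct and mRNA dose changed together between the oocyte groups and cannot be told apart. A further 17 oocytes carry a 20 ng label and 23 a 50 ng label for Dam-lamin B1, with no concentration unit. Whole zygotes (19 with Dam-lamin B1, 46 with Dam), cells of 2-cell embryos (47 and 45) and cells of 8-cell embryos (41 and 4) are labelled as C57BL/6 females crossed with CAST/EiJ males. Zygotes were injected with the oocyte doses. The doses for the 2-cell stage, injected in late zygotes, were 10 ng/µl of Dam-lamin B1 or 40 ng/µl of Dam mRNA, and those for the 8-cell stage, injected in late 2-cell embryos, were 20 or 40 ng/µl. Isolated pronuclei with Dam-lamin B1 (10 maternal, 15 paternal, strain label C57BL/6) and 10 embryonic stem (ES) cells of a 129/Sv by CAST/EiJ cross were also used. These zygotes, cells of 2-cell and 8-cell embryos and pronuclei also spent 6 to 8 h without auxin, as did the Kdm5b groups named below. For the ES cells, the oocytes labelled 20 ng and 50 ng, and zygotes in aphidicolin or DMSO no such time is used here. Further groups with Dam-lamin B1 are given as values at the end. They are pronuclei (strain label C57BL/6) and whole zygotes (C57BL/6 females with CAST/EiJ males) that received 2 µg/µl of wild-type or mutant Kdm5b mRNA with 5 ng/µl of Dam-lamin B1 mRNA, and whole zygotes of that cross with wild-type or mutant Kdm4d, aphidicolin or DMSO, for which no dose is used here.

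No mother, litter or day is given for any cell. Oocytes, blastomeres and ES cells were therefore described without a test. Zygotes and pronuclei were tested cell against cell, and the p-values measure only the spread between these cells, which may be technical. Recovered depth ran from 23532 to 1090785 reads per cell with a median of 71710. It was lower in oocytes with Dam-lamin B1 (median 47889 reads) than in oocytes with Dam (median 181840). In the oocyte Dam libraries 22 bins that hold oocyte genes had a mean OE of 1.38 and 8 bins that hold housekeeping genes 1.36, above the mean of 0.994 over all bins. These loci mark accessible chromatin and do not identify the cell type by themselves.

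The members were concentrated on 3 chromosomes. Chromosome 14 held 282 of them (70.5%) although it holds 5.06% of the bins, chromosome 5 held 54 and chromosome 16 held 37. The remaining 27 lay on chromosomes 1, 3, 4, 7, 8, 10 and 13, and 9 autosomes had none. From 80 Mb to its last bins, chromosome 14 held 256 members among the 448 bins that their span covers. On chromosome 5, 53 members lay between 50 and 100 Mb, and on chromosome 16, 35 lay between 60 and 90 Mb. These limits were drawn after the positions were seen. Members often touched each other: 310 of the 400 lay in runs of at least 2 adjacent bins, and 220 in runs of at least 5.

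The blocks differed in gene content. Over all members there were 0.363 protein-coding genes per bin by gene midpoint, against 0.855 over all bins. The distal chromosome 14 block held 14 coding genes in 256 bins, or 0.0547 per bin, and 94.5% of its bins held none. The chromosome 5 block had 0.566 per bin, below the value of all bins. The chromosome 16 block had 1.34 per bin, above it, and these genes lay in 6 of its 35 bins.

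The 250 bases upstream of 5 coding genes whose bins are members on distal chromosome 14 are shown because these genes stand for different later patterns. Pcdh20 (a protocadherin, a cell adhesion protein) and Slitrk6 (a transmembrane protein of neurons and the inner ear) lie in 2 of the longest runs of adjacent members. Ednrb encodes the endothelin B receptor, Olfm4 a secreted olfactomedin glycoprotein, and Rap2a a small GTPase, and their bins were lower with Dam-lamin B1 in zygotes or did not pass the test there. The sequences are from RefSeq, build GRCm38.p6, read 5′ to 3′ on the strand of the gene, and capitals mark GATC, the site that Dam methylates.
Pcdh20, chr14:88471397-88471646 (minus strand): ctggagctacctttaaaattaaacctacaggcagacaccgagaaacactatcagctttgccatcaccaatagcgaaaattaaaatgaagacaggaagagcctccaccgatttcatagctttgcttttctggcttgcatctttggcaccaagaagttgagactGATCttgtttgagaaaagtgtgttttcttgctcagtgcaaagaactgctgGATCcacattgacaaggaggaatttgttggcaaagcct
Slitrk6, chr14:110755150-110755399 (minus strand): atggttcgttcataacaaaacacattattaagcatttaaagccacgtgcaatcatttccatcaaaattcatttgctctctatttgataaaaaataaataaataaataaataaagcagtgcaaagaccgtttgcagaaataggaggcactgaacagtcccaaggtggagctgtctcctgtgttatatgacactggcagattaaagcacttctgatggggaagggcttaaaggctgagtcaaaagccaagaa
Ednrb, chr14:103843702-103843951 (minus strand): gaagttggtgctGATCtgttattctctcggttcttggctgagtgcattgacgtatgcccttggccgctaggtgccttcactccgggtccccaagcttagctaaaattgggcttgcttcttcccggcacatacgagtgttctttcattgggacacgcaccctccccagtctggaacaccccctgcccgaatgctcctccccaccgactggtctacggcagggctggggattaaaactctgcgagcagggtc
Olfm4, chr14:80000052-80000301 (plus strand): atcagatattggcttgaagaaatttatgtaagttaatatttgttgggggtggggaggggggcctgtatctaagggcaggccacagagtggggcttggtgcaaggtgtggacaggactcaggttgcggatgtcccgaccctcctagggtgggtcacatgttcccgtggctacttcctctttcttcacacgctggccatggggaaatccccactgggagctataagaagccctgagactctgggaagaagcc
Rap2a, chr14:120478211-120478460 (plus strand): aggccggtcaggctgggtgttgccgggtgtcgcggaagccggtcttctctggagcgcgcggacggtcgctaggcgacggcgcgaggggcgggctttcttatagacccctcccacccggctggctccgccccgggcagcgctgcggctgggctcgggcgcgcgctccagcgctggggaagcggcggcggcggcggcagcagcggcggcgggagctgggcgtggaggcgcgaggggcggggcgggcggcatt
GATC was searched as written, and since it is its own reverse complement both strands give the same matches. It occurred in 76 of 141 upstream windows of member genes (53.9%) and in 41.9% of all 32851 windows of this length in the table. Member windows had a lower median GC content, 41.2% against 52.4%. A window without GATC says only that these letters are not in it. Of 145 coding genes in members, 126 matched a window.

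In the oocytes that defined the members, most cells with Dam-lamin B1 were above the Dam oocytes, over a wide range. The level of the members in a cell was taken as its mean OE over the 400 bins divided by its mean OE over all other bins. In oocytes with Dam-lamin B1 it ran from 0.805 through a median of 2.02 to 5.88, and 49 of 56 oocytes were above 1. In oocytes with Dam it ran from 0.494 through 0.695 to 0.976, so none of 43 was above 1. Of the oocytes with Dam-lamin B1, 50 were above the highest Dam oocyte, and 6 lay within the range of the Dam oocytes. The bins were chosen for this difference, so the gap is no finding. The spread among these oocytes and the levels of the blocks come from the same values, and a ranking by means can favour bins with a few very high oocytes, so both are given as a description.

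**Figure D1:**
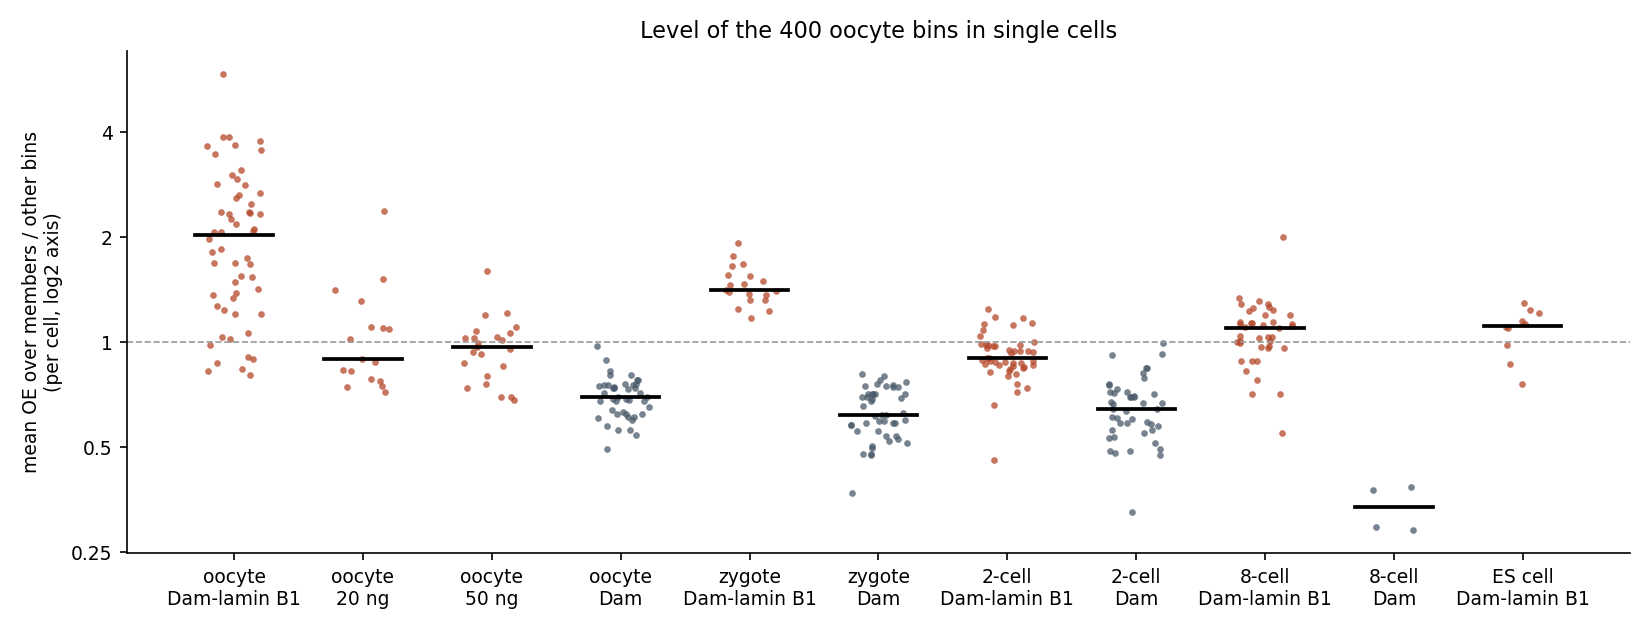
Mean OE over the 400 members divided by the mean over all other bins, on a log2 axis, for each single cell (point) of 11 groups, with the median of each group as a bar. Oocytes with Dam-lamin B1 spread from 0.805 to 5.88, the oocytes labelled 20 ng and 50 ng lie mostly near 1, and all 19 zygotes with Dam-lamin B1 lie above 1.

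The 3 blocks were high together in some oocytes and apart in others. All 3 blocks were above 1 in 24 of 56 oocytes, 2 were in 17, only 1 was in 14, and none was in 1. On distal chromosome 14 the block's level ran from 0.303 to 5.95 with a median of 1.78, and 25 of 56 oocytes reached at least 2. The chromosome 5 block ran from 0.559 to 7.09 (median 1.54, 24 oocytes at 2 or more), and the chromosome 16 block from 0.378 to 8.26 (median 1.20, 18 oocytes). All 3 blocks reached 2 in 6 oocytes, and none did in 15. Across the 56 oocytes the levels of the chromosome 14 and chromosome 5 blocks had Pearson's r = 0.04 and Spearman's rho = -0.04. For chromosomes 14 and 16 they were 0.36 and 0.16, and for chromosomes 5 and 16 they were 0.30 and 0.38. The first and second set of the chromosome 14 block's members, split in order of position, had r = 0.91 in the same oocytes. This was not particular to them: the same split had r = 0.91 in Dam oocytes, 0.96 with the 20 ng label and 0.94 with the 50 ng label. Between blocks, Dam oocytes had r = 0.05 for chromosomes 14 and 5, 0.57 for 14 and 16, and 0.41 for 5 and 16. These points share a library and its depth, and r is given as a description.

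Oocytes with fewer reads tended to have higher levels: the log10 of recovered reads and the members' level had r = -0.46 over the 56 oocytes, against 0.21 in the 43 Dam oocytes. The part of depth in the levels was not tested. Whole chromosomes also varied more between oocytes with Dam-lamin B1. The mean OE of a chromosome relative to the cell's own mean had an SD between oocytes of 0.155 to 0.509 over the 19 autosomes, highest on chromosome 14. The same SD was 0.0366 to 0.0952 in Dam oocytes and 0.0461 to 0.227 in oocytes labelled 20 ng.

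**Figure D2:**
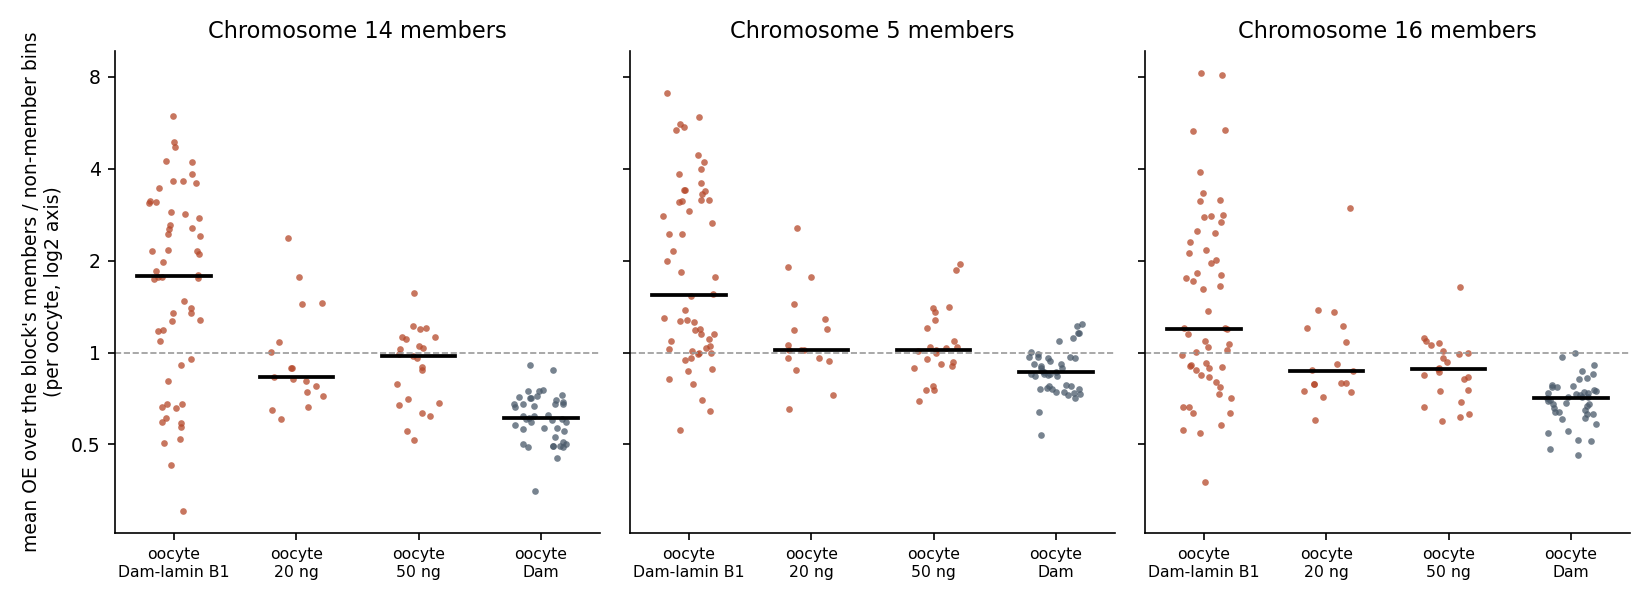
Level of the members of each long block, divided by the mean OE of all non-member bins of the same oocyte, on a log2 axis, for single oocytes (points) with group medians (bars). In each block the oocytes with Dam-lamin B1 reach levels of at least 5.95, and the Dam oocytes stay at or below 1.24.

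Single members are shown by their values in the oocytes. The highest member, chr8:39100001-39200000, lies inside Tusc3 (a subunit of an oligosaccharyltransferase complex) and in both LAD lists. Its OE in oocytes with Dam-lamin B1 ran from 0 through a median of 2.25 to 16.9 (mean 3.26 ± 3.38, SD, n = 56), against 0 through 0.536 to 2.86 with Dam (0.739 ± 0.656, n = 43). The groups overlapped, and 47 of 56 and 9 of 43 oocytes had an OE of at least 1. The second, chr14:110300001-110400000, holds no coding gene. It ran from 0 through 2.03 to 7.99 with Dam-lamin B1 (mean 2.59 ± 2.30) and from 0 through 0.542 to 1.75 with Dam (0.549 ± 0.416). The other 8 of the 10 highest members were all on chromosome 14, between 82600001 and 112600000, and none held a coding gene by midpoint.

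The 5 longest runs were all on chromosome 14. The longest, 28 bins at chr14:87500001-90300000, holds Pcdh20 and no other coding gene. Its level over the non-member bins ran from 0.276 through 1.73 to 7.10 in oocytes with Dam-lamin B1, and 26 of 56 oocytes reached 2. In Dam oocytes it ran from 0.326 through 0.623 to 0.901. The next runs were 26 bins at chr14:81800001-84400000 without a coding gene and 23 bins at chr14:109200001-111500000 with Slitrk6. They were followed by 17 bins at chr14:111700001-113400000, also without a coding gene, and 16 bins at chr14:79800001-81400000 with Olfm4. Their median levels in oocytes with Dam-lamin B1 were 1.62, 2.13, 1.78 and 2.13, against 0.562, 0.572, 0.571 and 0.830 in Dam oocytes.

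Oocytes that the rule did not use, labelled 20 ng and 50 ng, had members' levels near 1. The members' level ran from 0.722 through 0.897 to 2.37 with the 20 ng label, with 8 of 17 oocytes above 1. It ran from 0.683 through 0.969 to 1.596 with the 50 ng label, with 10 of 23 above 1. In oocytes labelled 20 ng, 204 of 400 members (51%) had a mean OE of at least 1, against 48.8% of all bins. With the 50 ng label 147 members (36.8%) did, against 50.3% of all bins. The first share is near that of all bins, and the second is below it.

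Set against the same Dam oocytes that entered the rule, 369 members were above Dam with the 20 ng label and 359 with the 50 ng label, where all bins gave 46.1% and 47.6%. This ratio shares its control with the rule and supports nothing, since members were chosen for low Dam values too: their median Dam OE was 0.64, against 0.995 over all bins. The median member OE was 1.01 with the 20 ng label and 0.895 with the 50 ng label, between the 1.69 of the oocytes that chose the members and the Dam value. With the 20 ng label the highest level of any oocyte was 2.37, 2.56 and 2.99 in the chromosome 14, 5 and 16 blocks. With the 50 ng label it was 1.56, 1.95 and 1.64. Median depth was 46625 reads with the 20 ng label and 61577 with the 50 ng label. It was 47889 in the oocytes that chose the members, and the part of depth was not tested.

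In the bin of Pcdh20 an OE of at least 1 was reached by 27 of 56 oocytes with Dam-lamin B1 (0 through 0.858 to 8.21) and by 4 of 17 with the 20 ng label (0 through 0.571 to 3.38). With the 50 ng label 8 of 23 did (0 through 0.864 to 2.11), and of the Dam oocytes none of 43 (0 through 0.417 to 0.976). All 4 groups held oocytes at 0 in this bin, and they overlap below 1.

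**Figure D3:**
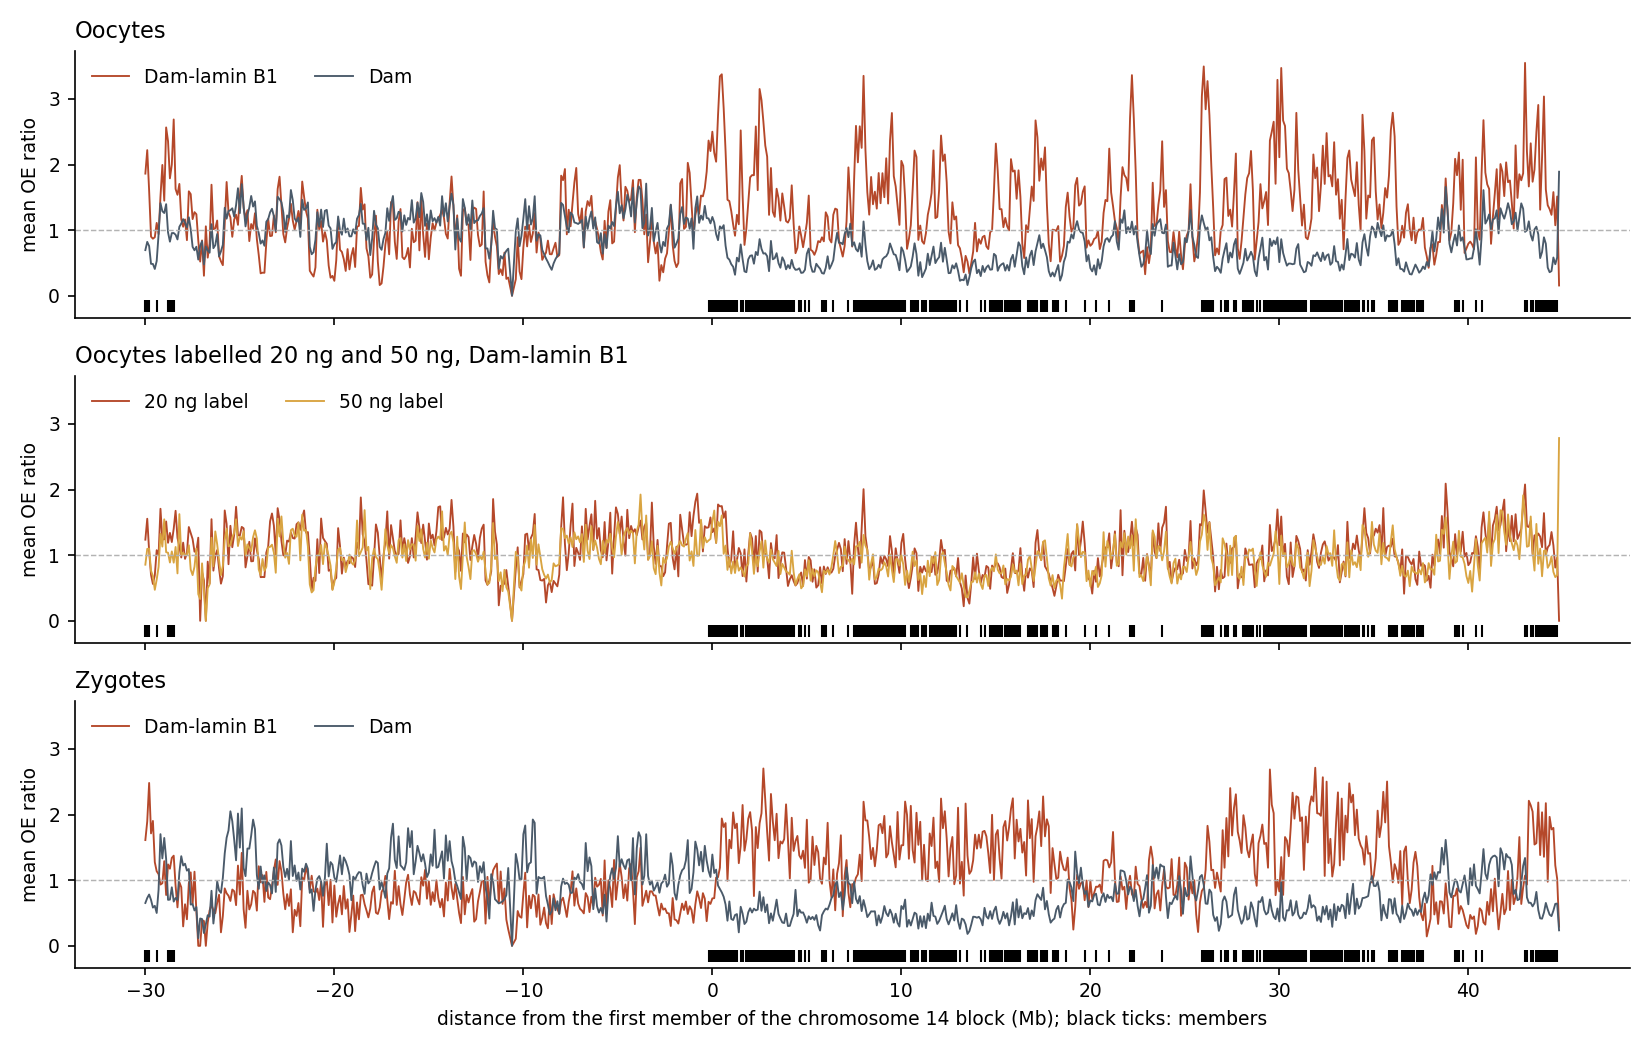
Mean OE per 100 kb bin along chromosome 14 against the distance in Mb from the first member beyond 80 Mb, in oocytes, oocytes labelled 20 ng and 50 ng, and zygotes, with members as black ticks. Beyond 0 Mb the Dam-lamin B1 line lies above the Dam line over most members in oocytes and zygotes. The lines of the 20 ng and 50 ng labels lie on both sides of 1. Their window means were 0.797 and 0.764 at 90 to 100 Mb of the chromosome, and 1.29 and 1.15 at 120 to 130 Mb. These were the lowest and highest windows from 80 Mb on.

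Zygotes gave values that the rule did not use. The rule chose bins with low Dam values in oocytes, and the part of a shared low Dam value in the zygote difference was not tested. In zygotes the members' median OE was 0.582 with Dam, against 0.956 over all bins, and 1.49 with Dam-lamin B1, against 0.903. The members were thus high with Dam-lamin B1 and low with Dam. Their level ran from 1.17 through 1.41 to 1.92 in 19 zygotes with Dam-lamin B1 and from 0.370 through 0.619 to 0.809 in 46 with Dam, and the groups did not overlap. With limma on log2(OE + 0.25), 260 of the 383 members that passed the filter on low values were higher with Dam-lamin B1 at a Benjamini-Hochberg adjusted p under 0.05, against 22.2% of all 23839 bins tested. A further 16 members were lower, against 38% of all bins. At an unadjusted p under 0.05, 291 members passed, against 64.8% of all bins. The median difference was 0.99 over the members tested and -0.37 over all bins, on the log2(OE + 0.25) scale.

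Depth differed between these arms, with a median of 41738 reads with Dam-lamin B1 and 94166 with Dam. For this reason, counts were also taken with all zygotes thinned to 28383 reads. Then 229 of 375 members were higher, against 19.6% of all bins, and 5 were lower, against 17.9%. At an unadjusted p under 0.05, 270 members passed there, against 48.3% of all bins. Bins in both LAD lists that are not members gave 33.4% higher and 16.4% lower as deposited, and 29.5% and 5.31% at equal reads. Non-members on chromosome 14 gave 11.6% and 39.7%, and 9.68% and 16.1% at equal reads. The difference between members and these other bins was not tested.

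The 3 blocks gave similar shares. Higher with Dam-lamin B1 were 188 of 256 members tested on distal chromosome 14, 31 of 47 on chromosome 5 and 26 of 35 on chromosome 16. Of the 56 members outside the blocks 45 were tested, and 15 were higher (33.3%) and 7 lower (15.6%). These shares were near the 33.4% and 16.4% of the non-members in both LAD lists. At equal reads they were 29.3% and 7.32%, against 29.5% and 5.31% of those non-members. The largest increase was at chr5:61600001-61700000, without a coding gene. Its OE in zygotes ran from 0.617 through 3.63 to 6.17 with Dam-lamin B1 and from 0 through 0.715 to 2.20 with Dam. The log2 difference was 2.30 ± 0.28 (SE; limma, adjusted p = 9.2e-12, and 3.2e-09 at equal reads), and 17 of 19 against 12 of 46 zygotes had an OE of at least 1. The next were chr14:90500001-90600000 with 2.22, chr14:113700001-113800000 with 2.09, chr16:84000001-84100000 with 2.05 and chr14:112000001-112100000 with 2.03, all without a coding gene.

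Genes in the chromosome 14 block went both ways. The bin of Slitrk6, which is in the TE list only, was higher with Dam-lamin B1 in zygotes: the OE ran from 0 through 2.02 to 6.95, against 0 through 0.346 to 1.57 with Dam. The log2 difference was 1.71 ± 0.30 (SE; limma, adjusted p = 7.5e-07, and 0.0016 at equal reads). The bin of Pcdh20 was higher by 0.88 ± 0.31 (limma, adjusted p = 0.0089, and 0.028 at equal reads). The bin of Ednrb did not pass the test, at -0.46 ± 0.29 (limma, adjusted p = 0.15).

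The bins of Rap2a and Olfm4 were lower with Dam-lamin B1 than with Dam in zygotes. At Rap2a the OE ran from 0 through 0 to 1.19 with Dam-lamin B1 and from 0 through 0.621 to 4.18 with Dam, so 2 of 19 and 17 of 46 zygotes had an OE of at least 1. The log2 difference was -1.37 ± 0.30 (SE; limma, adjusted p = 6.1e-05, and 0.026 at equal reads). At Olfm4 it was -1.09 ± 0.28 (limma, adjusted p = 0.00056, and 0.027 at equal reads). Of the other members with the largest decreases, chr13:119800001-119900000 with Tcstv1 gave -1.19 (adjusted p = 0.017 at equal reads). The bins chr13:120100001-120200000, with -1.11, and chr14:79800001-79900000, with -0.80, were no longer past the threshold at equal reads (limma, adjusted p = 0.60 and 0.054). The oocyte medians of the Rap2a and Olfm4 bins with Dam-lamin B1 were 1.27 and 2.14.

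Most members, like most bins in general, had a lower value in maternal than in paternal pronuclei, and few passed the test. The members' level ran from 0.671 through 1.29 to 1.82 in 10 maternal pronuclei and from 1.075 through 1.46 to 1.80 in 15 paternal ones, and the groups overlapped. As deposited, limma called 17 of 388 members lower in maternal pronuclei, against 1.91% of all bins, and 1 higher, against 0.281%. At equal reads (31385 per pronucleus) 1 member was lower, against 0.0591% of all bins, and 0 were higher, against 0.038%. Thinning raised the median SE over the members tested from 0.487 to 0.608, so a bin not called at equal reads may still differ. At an unadjusted p under 0.05, 117 members passed as deposited, against 16.3% of all bins, and 75 at equal reads, against 11.3%. The median log2 difference, maternal minus paternal, was -0.58 over the members tested and -0.19 over all bins. A positive value was found in 82 of 388 members and in 9049 of all 23884 bins tested. On distal chromosome 14 the median was -0.73, with 27 of 256 positive, and at equal reads -0.67, with 31 of 256. Over all bins at equal reads the median was -0.12, with 10163 of 23702 positive. Median depth was 83344 reads in maternal and 144871 in paternal pronuclei.

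The member called at equal reads was chr14:117400001-117500000, within Gpc6 (a cell-surface glypican). Its OE ran from 0 through 0.298 to 0.633 in maternal pronuclei and from 0 through 2.79 to 7.01 in paternal ones. None of 10 and 11 of 15 had an OE of at least 1, and the log2 difference, maternal minus paternal, was -2.20 ± 0.49 (SE; limma, adjusted p = 0.0070, and 0.029 at equal reads). The next 4 were chr5:85700001-85800000 with -2.01, chr14:117300001-117400000, also within Gpc6, with -1.97, chr14:94800001-94900000 with -1.92 and chr14:85800001-85900000 with -1.85. The single member that was higher in maternal pronuclei, by 1.93 ± 0.44 (limma, adjusted p = 0.0080, and 0.12 at equal reads), was the bin of Pramel47. Its expected reads are 19.1% of those of the median bin.

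At later stages the members' median level with Dam-lamin B1 was lower than in zygotes, and with Dam it was again below 1. In cells of 2-cell embryos their level ran from 0.461 through 0.900 to 1.247 with Dam-lamin B1 and from 0.327 through 0.644 to 0.995 with Dam. In cells of 8-cell embryos it ran from 0.551 through 1.10 to 2.00 with Dam-lamin B1, and the 4 Dam cells had 0.289 to 0.385. In ES cells with Dam-lamin B1 it ran from 0.760 through 1.11 to 1.30. Among embryos and ES cells the order of the medians with Dam-lamin B1 was zygote, ES cell, 8-cell and 2-cell. The ES and 8-cell ranges overlapped. Stage, mRNA dose and time of injection changed together among the embryos and cannot be told apart in this order. The oocyte median of 2.02 was set by the rule and has no place in this order. Oocytes that the rule did not use had medians of 0.897 (20 ng label) and 0.969 (50 ng label).

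As log2 ratios of the group means, 351 members were above Dam in zygotes, 324 at the 2-cell stage and 375 at the 8-cell stage, against 42.6%, 54.8% and 64.7% of all bins. The median ratio of members and of all bins was 1.09 and -0.20 in zygotes, 0.36 and 0.11 at the 2-cell stage and 1.42 and 0.60 at the 8-cell stage. Bins in both LAD lists that are not members had 0.37, 0.49 and 1.18, so at the 2-cell stage their median was above that of the members. The 8-cell ratio rests on 4 Dam cells. In these cells the members' median OE was 0.174, with a lower quartile of 0, against a median of 0.582 over all bins. With Dam-lamin B1 the 8-cell medians were close, 0.953 for members and 0.896 for all bins. For members with a Dam value of 0 the ratio rests on the constant added. The part of these low Dam values in the 8-cell counts and ratios was not tested. Members with a mean Dam-lamin B1 OE of at least 1 numbered 319 in zygotes, 132 at the 2-cell stage, 178 at the 8-cell stage and 215 in ES cells, against 41.9%, 41.3%, 41.7% and 43.9% of all bins.

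**Figure D4:**
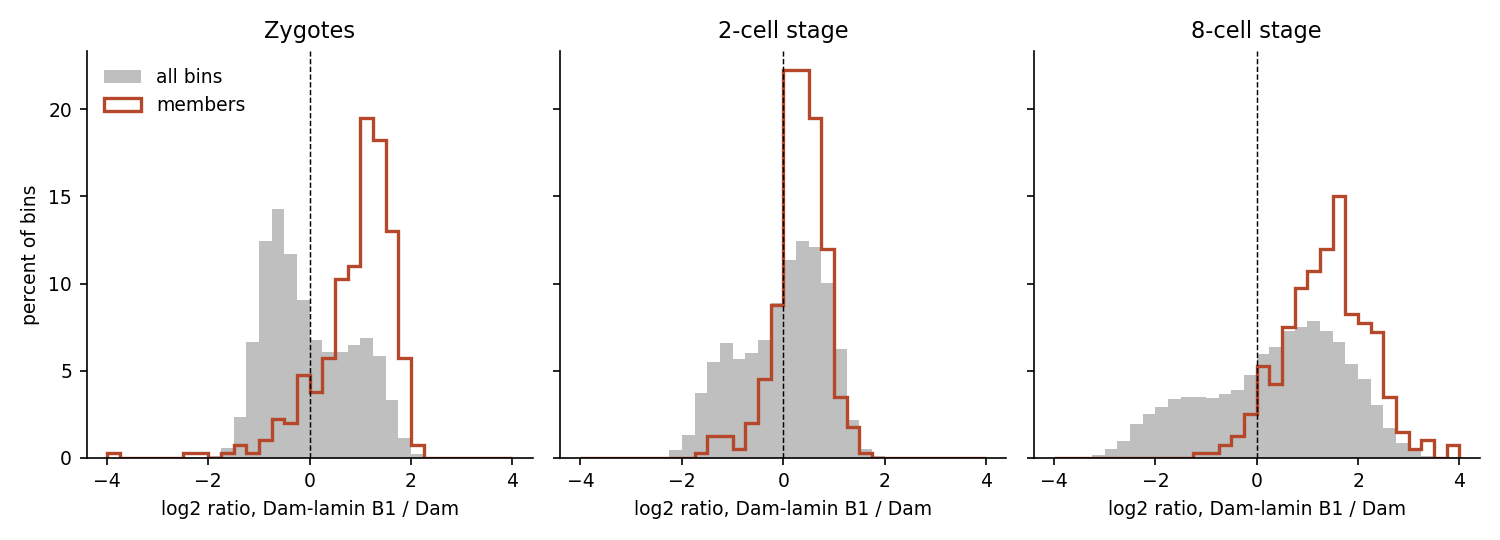
Distribution of the log2 ratio of mean Dam-lamin B1 to mean Dam OE (with 0.25 added to both) over all bins (grey, filled) and over the 400 members (red line), in percent of bins, with values beyond 4 on either side drawn in the end bins. The members' median is 1.09 in zygotes, 0.36 at the 2-cell stage and 1.42 at the 8-cell stage.

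A ratio of at least 0.5 was reached by 314 members in zygotes, 148 at the 2-cell stage and 342 at the 8-cell stage, against 29.9%, 31.2% and 52.7% of all bins. At all 3 stages 105 members had a ratio of at least 0.5, or 26.2% of the members against 12% of all bins. Those with the highest oocyte ratio lie on chromosome 14, at 110300001-110400000, 95100001-95200000, 82600001-82700000, 82700001-82800000 and 110200001-110300000. None holds a coding gene. Of the 400 bins with the highest ratio at each later stage, 31 were members in zygotes (7.75% of either list), 3 at the 2-cell stage (0.75%) and 15 at the 8-cell stage (3.75%), where members are 1.67% of all bins.

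The extremes at the 8-cell stage were of mixed quality. The 5 highest ratios were at chr5:95600001-95700000, chr8:20600001-20700000, chr5:94100001-94200000 (Pramel38), chr5:86200001-86300000 (Tmprss11c) and chr14:3500001-3600000. All of them but the bin of Tmprss11c, a transmembrane serine protease gene, have expected reads under 7% of the median bin. All 5, Tmprss11c included, had a mean OE of 0 in the 4 Dam cells, so their ratios rest on the 0.25 added. The 5 lowest were at chr5:94900001-95000000, chr14:92400001-92500000, chr14:120400001-120500000 (Rap2a), chr5:55800001-55900000 and chr5:93400001-93500000. The first of these has expected reads of 5.7% of the median bin, and 1 of its 4 Dam cells had an OE of at least 1.

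Members lay in blastocyst LADs more often than bins in general. The authors deposited LAD lists for the inner cell mass (ICM) and the trophectoderm (TE). Both lists held 304 members (76%), the TE list alone 73 (18.2%), the ICM list alone 11 (2.75%), and neither held 12 (3%). Over all bins the shares were 50.3%, 9.47%, 8.23% and 32%. On distal chromosome 14 the TE list alone held 58 of 256 members (22.7%).

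Member bins were found for 4 of the 16 gene lists examined. Olfactory receptor genes, the odour receptors of the nose, had 7 member bins of 338 (2.07%, near the 1.67% of all bins that are members), all on chromosome 14, 6 of them between 49800001 and 50700000. Their mean OE with Dam-lamin B1 in oocytes was 1.11 to 2.22 against 0.530 to 0.987 with Dam, and limma called 5 of 7 higher in zygotes, and 5 of 7 were called at equal reads. Keratin-associated protein genes, which build the hair shaft, had 5 member bins of the 36 of the keratin list (13.9%). These bins lie on chromosome 16 between 88600001 and 89300000. Their mean OE in oocytes was 1.24 to 1.93 with Dam-lamin B1 against 0.533 to 0.913 with Dam, and 1 of 5 was higher in zygotes. Of all bins tested in zygotes 22.2% were higher, a share that stands beside the counts of both lists.

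Pramel genes, a leucine-rich repeat family with many copies, had 9 member bins of 35 (25.7%) on chromosome 5, with 1.79 to 4.73 against 0.768 to 2.53 in oocytes. All 9 have expected reads under 50% of the median bin, and copies of such genes may share reads. Of the 5 tested in zygotes 1 was higher and 2 were lower, against 22.2% and 38% of all bins. These 3 did not pass the filter at equal reads, where 2 were tested and 0 called. Vomeronasal receptor genes, for pheromone sensing, had 3 member bins of 196 (1.53%, near the share of all bins). The 12 other lists, ribosomal protein, histone, Hox, Zfp, defensin and housekeeping genes among them, had no member bin. Over all members 32 had expected reads under 50% of the median bin or not recovered (8%, against 2.04% of all bins). For these 32 the median zygote ratio was -0.10, and 13 were above Dam.

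Zygotes under other conditions are given as values. In paternal pronuclei with wild-type Kdm5b, a histone H3 lysine demethylase, the members' level ran from 0.709 through 0.947 to 1.10 (n = 19). With mutant Kdm5b it ran from 1.04 through 1.23 to 1.48 (n = 6), and without Kdm5b from 1.075 through 1.46 to 1.80. The wild-type range therefore overlapped the others only between 1.04 and 1.10. Bins in both LAD lists that are not members had a median OE of 1.20 without, 1.16 with mutant and 1.01 with wild-type Kdm5b. Members had 1.49, 1.31 and 0.917, and all bins 0.903, 0.987 and 1.03, in the same order. The lower value with wild-type Kdm5b was thus not particular to the members. In maternal pronuclei the members' level ran from 0.582 through 1.11 to 1.45 with wild-type (n = 19). With mutant Kdm5b it ran from 0.794 through 1.20 to 1.62 (n = 13).

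In whole zygotes the median was 1.06 with wild-type (0.863 to 1.64, n = 14) and 1.30 with mutant Kdm5b (0.826 to 2.12, n = 9). It was 1.22 with wild-type (0.624 to 1.92, n = 12) and 1.26 with mutant Kdm4d (0.922 to 1.70, n = 10), another histone demethylase. It was 1.35 in aphidicolin, which blocks DNA replication (0.974 to 1.46, n = 9), and 1.22 in its solvent DMSO (1.01 to 1.58, n = 11). Each of these pairs overlapped.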

How the data were processed

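Single-cell DamID libraries of mouse oocytes, embryos and ES cells were measured in 100 kb bins. The values the authors deposited are OE, observed divided by expected reads, a ratio, for 512 cells in 24639 autosomal bins. The submitters' processing notes name build mm10, cutadapt and BWA 0.7.12. The method behind the expected reads was not given in the sources used here. In all, 617 bins had no value and were left out. The deposited LAD lists hold coordinates only, and a bin counted as in a list when at least 50% of it was covered.

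OE values of a bin are whole multiples of the value of 1 read. This step was found for 23946 bins, and 100% of the non-zero values came out whole within 0.02 reads, which gave depth per cell and expected reads per bin relative to the median bin. Without molecular identifiers, reads are not independent molecules. Samples were grouped by title. Labels that contradict each other on dose (13 oocytes) or construct (1 cell, 8-cell stage) kept those cells out of every comparison.

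Zygotes with Dam-lamin B1 against Dam, and maternal against paternal pronuclei, were tested with limma 3.58.1 in R 4.3.3 (trend on the mean, log2(OE + 0.25), bins non-zero in at least 20% of cells, Benjamini-Hochberg over all bins). The script was tested on simulated data: with the real, unequal depths it called unchanged bins more often than its threshold allows in zygotes. After thinning to equal reads it did not, so both counts are given. Thinning also removes reads, so a bin not called at equal reads may still differ. Means and ratios were computed in Python 3.11.15. Alternatives were other pseudocounts, filters, numbers of members, trimmed means, Fisher's exact test and equal reads.

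The members, the gene lists and the tests were chosen with earlier results of these data known. The regular expression for histone genes was changed to current symbols after it had matched none. Bins named in the text were the 10 highest members, the 5 longest runs, the 5 largest differences each way in zygotes and pronuclei, members holding listed genes, the 5 highest and lowest at the 8-cell stage, and the 5 highest that stayed above Dam. Ednrb, Slitrk6 and Pcdh20 were chosen after their values were seen. A gene belongs to the bin of its midpoint in RefSeq GRCm38.p6.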

Additional observations from a re-analysis of the deposited data

Results flagged for a closer look

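In zygotes kept in aphidicolin (n = 9), the lowest cell stood apart from the others on the distal chromosome 14 members, with a level of 0.844 against 1.26 in the next cell. It was the only flag among 28 groups and sets of members examined, and chance flags about 1 in 20 groups.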

How the results depend on the processing

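Of 71 percentages of members recomputed under other settings, 56 stayed within 1.5 times the value reported. The share lower in zygotes, 4.18%, was 0.25% with Fisher's exact test, 1.33% at equal reads and 1.04% among the 200 highest bins. The share lower in maternal pronuclei, 4.38%, was 2.06% with a pseudocount of 1, 2.5% with no filter, 0% with Fisher's exact test, 0.265% at equal reads and 1.54% with the replicate block. The share higher in maternal pronuclei, 0.258%, was 0% with no filter, Fisher's exact test, equal reads, the replicate block and the 200 highest bins. With the higher of the OE limits tried in place of 1, the share of members was 23.2% with the 20 ng label and 10.8% with the 50 ng label.

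With the replicate block, over the cells that share a number, the share higher in zygotes was 52.6% in place of 67.9%. The replicate numbers showed no pairing by correlation: none of the 19 zygote and 10 pronucleus pairs correlated at over 0.1. In each comparison 1 pair correlated best with its own number. These correlations rest on few reads per bin and cannot exclude that same-numbered cells are pairs. Leaving out each of the 4 Dam cells in turn gave 92.2% to 94% of members above Dam at the 8-cell stage, against 93.8% with all of them.

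The share of members on chromosome 14 was recomputed after seeing the data. It was 86.5% among the 200 highest bins, 47.9% among the 800 highest, 66.8% with a pseudocount of 1 in the rule, 68.2% with a trimmed mean, 54.8% with the median over oocytes and 70% with each cell scaled to a mean OE of 1. The depth limits single bins: among the named bins, most have oocytes at an OE of 0.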

Other observations

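Of the oocytes, 13 have labels that contradict each other on the dose, 20 or 50 ng, and have no group. Their members' level ran from 0.693 through a median of 0.946 to 1.16, and 4 of 13 were above 1. In the chromosome 14 block they ran from 0.511 through 0.941 to 1.15, in the chromosome 5 block 7 of 13 were above 1, and in the chromosome 16 block 4 of 13 were.

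Within chromosome 14 the members' density changed along the arm. Windows of 10 Mb from 20 to 40 Mb and from 60 to 80 Mb held 0 to 2 members each, and the 4 windows from 80 to 120 Mb held 76, 62, 35 and 65. In the window from 80 to 90 Mb oocytes had a mean OE of 1.56 for Dam-lamin B1, 0.613 for Dam, 0.968 for the 20 ng label and 0.897 for the 50 ng label.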
